A study of Mus musculus with 8 samples.

Results

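*Pi15*, *Podxl2*, *Plppr3* and *Evl* are 4 of the 32285 genes counted in single-cell RNA-seq libraries of mouse bone. They were taken by exact match of the gene symbol in all 8 count matrices. They were chosen because an earlier reading of the same matrices found them changed by genotype in several stages of the *Lepr*+ lineage. These stages are taken here to be the *Lepr*+ mesenchymal stem/stromal cells (MSCs), the *Lepr*+ osteoprogenitors (OPs) and the preosteoblasts (preOBs). The genotype differences in those 3 cell types are therefore given as a description with no test.

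The libraries came from 8 female mice, each homozygous for loxP-flanked (fl/fl) alleles of the 3 SOXC transcription factor genes, *Sox4*, *Sox11* and *Sox12*. SOXCOsxCre mutants (2 mice at 7 weeks, 2 at 13 weeks) also carried OsxCre, in which *Sp7* (osterix) regulatory sequence drives Cre recombinase, chiefly in cells on the way to becoming osteoblasts, unless a tetracycline is given. Controls (2 at each age) were sisters of mutants and lacked Cre, and doxycycline in the food kept OsxCre silent until P21 per the study's methods. No mouse with OsxCre alone was analysed here, so effects of the Cre transgene and of the SOXC deletion cannot be told apart. Femurs and tibiae of each mouse were scraped free of periosteum, flushed and digested, and hematopoietic cells were removed with antibody-coated magnetic beads, so the hematopoietic cells described here are those that escaped depletion.

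The product of *Pi15* is a secreted member of the CAP superfamily, named for inhibition of a peptidase. *Podxl2* encodes endoglycan, a membrane sialomucin of the CD34 family that can act as a ligand of L-selectin when it is sulfated and glycosylated. *Plppr3* encodes a membrane protein related to the lipid phosphate phosphatases, best known from growing axons, and *Evl* encodes a member of the Ena/VASP family, which binds the growing ends of actin filaments and speeds their elongation. In marrow, *Lepr*+ MSCs are perivascular stromal cells that produce CXCL12 and stem cell factor and can give rise to osteoblasts, and OPs and preOBs are the stages between them and the matrix-making osteoblasts (OBs).

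The position of each gene in build GRCm38 sets which neighbors could share reads with it. *Pi15* lies at chr1:17601901-17630939 on the plus strand and *Podxl2* at chr6:88842558-88875044 on the minus strand. *Plppr3* lies at chr10:79860475-79874634 on the minus strand and *Evl* at chr12:108554720-108688516 on the plus strand. Exons of each overlap an exon on the opposite strand, by 68 bases for *Pi15* (with *Gm28154*), 1099 bases for *Podxl2* (with *Gm15612*) and 278 bases for *Evl* (with *Degs2*). *Plppr3* overlaps *Ptbp1* by 251 exonic bases at its 3′ end and *Prtn3* by 159 at its 5′ end. Whether the counting used strand is not given in the sources used here.

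SOX4, SOX11 and SOX12 bind through an HMG box that recognizes short AT-rich sites, so the bases before each start site are shown with the 6-base words ACAAAG and ACAATG searched on both strands. RefSeq start-site windows of build GRCm38.p6, 300 bases long, were found for 3 of the 4 genes (all but *Pi15*). The 250 bases upstream of a start of *Podxl2* (chr6:88875047-88875296, minus strand), *Plppr3* (chr10:79874635-79874884, minus strand) and *Evl* (chr12:108554470-108554719, plus strand) read as follows, 5′ to 3′, with a matching word in capitals.
*Podxl2*: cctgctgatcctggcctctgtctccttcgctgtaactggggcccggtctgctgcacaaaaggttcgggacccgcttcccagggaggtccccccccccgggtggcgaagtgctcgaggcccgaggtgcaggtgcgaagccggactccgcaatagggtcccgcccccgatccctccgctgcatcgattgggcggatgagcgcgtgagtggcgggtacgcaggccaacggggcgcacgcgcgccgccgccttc
*Plppr3*: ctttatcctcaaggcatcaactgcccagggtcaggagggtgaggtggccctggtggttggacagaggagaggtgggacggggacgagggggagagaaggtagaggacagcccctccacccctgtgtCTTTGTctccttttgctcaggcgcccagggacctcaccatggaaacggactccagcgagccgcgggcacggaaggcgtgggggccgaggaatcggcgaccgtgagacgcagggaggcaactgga
*Evl*: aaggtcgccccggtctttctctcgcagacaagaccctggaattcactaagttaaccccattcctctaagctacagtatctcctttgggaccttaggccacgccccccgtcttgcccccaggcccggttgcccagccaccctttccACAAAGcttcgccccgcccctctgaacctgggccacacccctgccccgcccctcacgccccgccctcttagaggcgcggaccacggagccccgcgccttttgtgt
The *Plppr3* match, read on the other strand as CTTTGT, begins 124 bases before the start, and the first *Evl* match begins 105 bases before it. A second start of *Podxl2* has 1 match, within chr6:88874834-88874863 on the minus strand, with the word beginning 78 bases before that start, and another *Podxl2* start has 0. A second start of *Evl* has 2 matches, of which the one within chr12:108605559-108605588 begins 195 bases before the start. Both stretches are shown with the word in capitals.
*Podxl2*, second start: cagcgccgcagaACAAAGgctgtggggcgc
*Evl*, second start: attaggctgatcACAATGgagcaggtctca
Such words are common, since 9394 of 32851 windows of this length (28.6%) and 8572 of 27025 genes (31.7%) hold at least 1 of them. The matches are a description of the letters and not evidence of binding.

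Between 6410 and 8753 cells per library were kept (59629 in all), from libraries of 81894604 to 156090286 unique molecular identifiers (UMIs), each UMI standing for 1 captured RNA molecule. Clusters were named from marker lists and are called "-like" for that reason, and 14 cell types had enough cells to fit. OB-like cells were the most numerous type (26334 cells), and Sca1+ MSC-like cells, another stromal type, the scarcest (436 cells, 23 to 159 per mouse). Libraries numbered 1 were deeper (a median of 11618 to 13321 UMIs per kept cell) than those numbered 2 (7056 to 7984), in both genotypes and at both ages. Any 2 libraries shared at most 0.498% of their cell barcodes. For each mouse the UMIs of all cells of a type were added up, and levels are counts-per-million values of that sum (CPM) after TMM normalization, as the mean ± SD over the 4 control or the 4 mutant mice. The mouse was the replicate in every test.

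*Sox4*, the targeted gene with the highest level, fell in *Lepr*+ MSC-like, *Lepr*+ OP-like, preOB-like and OB-like cells of the mutants. It was at 411 ± 39.9 CPM in control and 169 ± 28.4 in mutant *Lepr*+ MSC-like cells, and at 182 ± 17.0 and 61.0 ± 12.3 in OB-like cells (log2 difference -1.59, SE 0.13, adjusted p = 0.000841, edgeR quasi-likelihood test). In endothelial-like cells *Sox4* had a log2 difference of -0.21 (SE 0.15, adjusted p = 1.00). *Sox11* passed the filter on low counts only in endothelial-like and growth plate chondrocyte (GPC)-like cells, and *Sox12* fell in OB-like cells by 2.10 on the log2 scale (SE 0.23, adjusted p = 0.00266).

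In control mice *Pi15* was a gene of the stromal and perivascular cells. Its mean level was 147 ± 39.3 CPM in preOB-like, 107 ± 72.0 in pericyte-like, 106 ± 7.75 in *Lepr*+ OP-like and 94.8 ± 21.7 in Sca1+ MSC-like cells, and the ranges of these 4 types over the mice overlapped. *Lepr*+ MSC-like cells followed at 30.6 ± 9.14 CPM, with every control mouse below every control mouse of the OP-like and preOB-like cells. OB-like cells were at 4.14 ± 3.01 CPM, below *Lepr*+ MSC-like cells in every comparison of mice. Endothelial-like cells had 1.44 ± 1.18 CPM, hypertrophic GPC-like cells 1.18 ± 1.39, and the other 6 types 0.744 or less. With cells of over 5% mitochondrial UMIs left out, in place of 10%, the control mean of *Pi15* was 37.0 ± 23.4 CPM in pericyte-like, 88.3 ± 34.3 in preOB-like and 144 ± 80.2 in Sca1+ MSC-like cells, so the order of these types depended on that limit.

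*Podxl2* was spread more evenly over the stromal and osteoblast-lineage cells. Control OB-like cells had 98.6 ± 4.25 CPM and Sca1+ MSC-like cells 97.2 ± 38.7, and the second range enclosed the first. *Lepr*+ OP-like (69.1 ± 6.30 CPM) and preOB-like cells (61.8 ± 7.02) overlapped each other and lay below OB-like cells in every mouse. *Lepr*+ MSC-like cells were at 48.4 ± 9.16 CPM, pericyte-like cells at 42.7 ± 30.9 and megakaryocyte-like cells at 30.9 ± 14.8 (n = 3), with overlapping ranges. Endothelial-like cells had 5.43 ± 1.21 CPM, hypertrophic GPC-like cells 4.98 ± 3.78 and the mixed myeloid cluster 4.05 ± 1.62. The other 4 types, GPC-like cells among them, were at 2.86 or less.

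*Plppr3* was counted in marrow myeloid cells as well as in stromal cells. The myeloid cluster, which held markers of granulocyte or monocyte precursors and of mast cells or basophils, had 27.5 ± 15 CPM in controls, against 25.7 ± 3.51 in *Lepr*+ MSC-like cells, and the ranges overlapped. Within the stromal cells the level went down from *Lepr*+ MSC-like to *Lepr*+ OP-like (15.1 ± 4.68 CPM) and preOB-like cells (13.6 ± 4.62), where every *Lepr*+ MSC-like value was above every OP-like value and the OP-like and preOB-like values overlapped. In Sca1+ MSC-like cells it was 12.5 ± 10.1 CPM. The other 9 types were at 1.07 CPM or less, OB-like cells among them at 0.843 ± 0.129. No UMI of *Plppr3* was counted in any of the 7 megakaryocyte-like sums, whose floors (3 counts per library) lay between 2.97 and 26.8 CPM.

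Of the 14 types, *Evl* was highest in endothelial-like cells, at 76.1 ± 15.4 CPM in controls. OB-like cells followed at 49.8 ± 5.58 CPM, a range that reached into the endothelial one through 1 endothelial value of 53.1. *Lepr*+ OP-like (42.4 ± 10.1 CPM), preOB-like (40.6 ± 7.21), *Lepr*+ MSC-like (38.7 ± 5.72), pericyte-like (38.5 ± 13.2) and Sca1+ MSC-like cells (30.4 ± 21.2, or 19.1 ± 22.0 at the 5% limit) overlapped one another. Megakaryocyte-like cells had 15.7 ± 6.17 CPM (n = 3), the myeloid cluster 12.1 ± 1.28, GPC-like cells 8.13 ± 1.6 and hypertrophic GPC-like cells 5.93 ± 1.90. Hematopoietic progenitor-like cells, erythroid-like cells and the cluster named cycling-like from its markers were at 2.58 CPM or less. *Car1*, *Gmfg* and *Myb* were among the leading genes of both the cycling-like and the progenitor-like cluster.

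**Figure D1:**
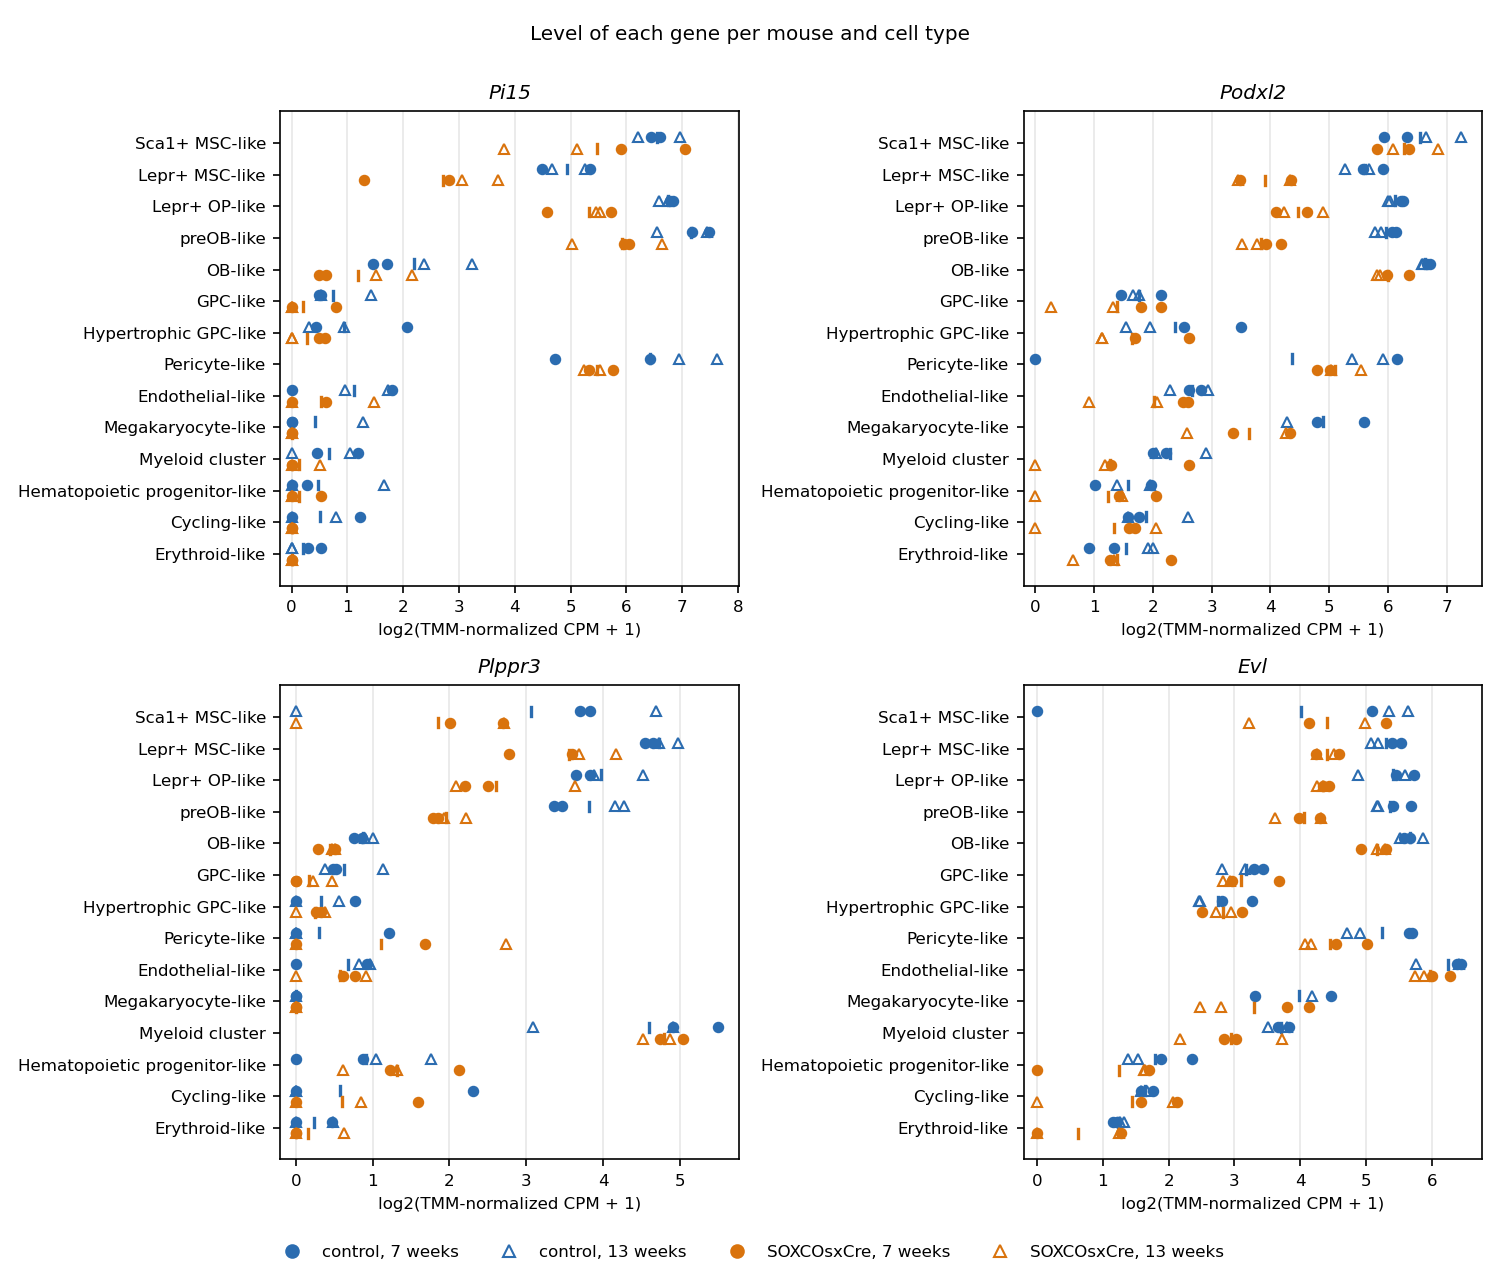
Level of each gene in each of 14 cell types, as log2(TMM-normalized CPM + 1) on the horizontal axis. Each point is 1 mouse (blue controls, orange SOXCOsxCre, filled circles 7 weeks, open triangles 13 weeks), and short vertical bars are the means of the plotted values. In *Lepr*+ OP-like as in *Lepr*+ MSC-like cells all 4 mutants lie below all 4 controls for each gene. Both types were used to choose the genes, and 2.27% and 2% of all genes tested there do the same. The groups overlap for *Plppr3* in the myeloid cluster and for *Podxl2* in Sca1+ MSC-like cells.

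In *Lepr*+ MSC-like cells, 1 of the 3 types that chose the genes, every mutant mouse was below every control mouse for all 4 genes. *Pi15* was at 21.3 and 39.5 CPM in the 7-week and at 24.4 and 37.4 in the 13-week controls, against 6.09 and 1.46 and then 12 and 7.29 in the mutants of those ages. *Podxl2* was at 46.7, 59.6, 49.9 and 37.4 CPM in controls, with the 7-week mice first, and at 19.4, 10.2, 9.86 and 19.2 in mutants. *Plppr3* was at 22.4, 24.2, 25.6 and 30.6 CPM in controls and at 11.1, 5.83, 17.0 and 11.9 in mutants. The highest mutant value was thus 12 CPM for *Pi15*, 19.4 for *Podxl2* and 17.0 for *Plppr3*, and the lowest control value 21.3, 37.4 and 22.4. *Evl* was at 41.2, 45.4, 35.2 and 32.8 CPM in controls and at 22.9, 18.0, 18.1 and 21.9 in mutants. The fitted log2 differences (mutant minus control, mean of both ages) were -2.28 (SE 0.33) for *Pi15*, -1.66 (SE 0.23) for *Podxl2*, -1.20 (SE 0.21) for *Plppr3* and -0.91 (SE 0.15) for *Evl*. These differences correspond to levels 4.86-fold, 3.15-fold, 2.29-fold and 1.87-fold lower in the mutants. The *Pi15* difference was -3.01 without mutant 1 of 7 weeks and ranged from -2.50 to -1.99 when another mouse was left out. Over all 11463 genes tested in this type, 0.105% were called lower and 2% had every mutant below every control, and nothing is read from these shares since the genes were picked on this contrast.

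*Lepr*+ OP-like cells showed the same separation of the groups. *Pi15* was at 109, 113, 106 and 95.3 CPM in controls and at 51.9, 22.8, 45.3 and 43.0 in mutants. *Podxl2* was at 73.3, 75.6, 62.9 and 64.5 CPM in controls and at 23.6, 16.0, 17.8 and 28.9 in mutants. *Plppr3* was at 11.5, 13.2, 22.0 and 13.7 CPM in controls and at 3.59, 4.64, 3.23 and 11.4 in mutants. For *Plppr3* the margin was narrow, since 1 mutant at 13 weeks (11.4 CPM) was just below the lowest control (11.5 CPM), while *Pi15* and *Podxl2* left wide gaps. *Evl* was at 51.7, 42.7, 47.0 and 28.3 CPM in controls and at 20.5, 19.4, 19.4 and 18.2 in mutants. The log2 differences were -1.39 (SE 0.19) for *Pi15*, -1.67 (SE 0.18) for *Podxl2*, -1.37 (SE 0.32) for *Plppr3* and -1.12 (SE 0.20) for *Evl*. Without mutant 2 of 13 weeks, the one at 11.4 CPM, the *Plppr3* difference was -1.98. In this type 0.392% of 10724 genes were called lower and 2.27% had separate groups.

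In preOB-like cells 3 of the 4 genes had separate groups. *Pi15*, the exception, was at 178, 144, 173 and 92.4 CPM in controls and at 61.0, 65.1, 98.9 and 31.7 in mutants, so 1 mutant at 13 weeks exceeded 1 control of that age. *Podxl2* was at 66.3, 69.0, 58.2 and 53.9 CPM in controls and at 17.2, 14.1, 10.4 and 12.7 in mutants. *Plppr3* was at 10.0, 9.31, 18.4 and 16.8 CPM in controls and at 2.61, 2.46, 3.66 and 2.82 in mutants. The mutant values of these genes were tightly grouped, and *Plppr3* rested there on 19 UMIs over the 4 mutants against 108 over the 4 controls. *Evl* was at 41.6, 50.4, 35.4 and 35 CPM in controls and at 18.8, 14.7, 18.9 and 11.3 in mutants. The log2 differences were -1.19 (SE 0.28) for *Pi15*, -2.19 (SE 0.18) for *Podxl2*, -2.16 (SE 0.32) for *Plppr3* and -1.32 (SE 0.20) for *Evl*. Of 10142 genes in this type 0.444% were called lower and 1.99% had separate groups. For *Podxl2*, *Plppr3* and *Evl* preOB-like cells had the largest fitted drop of the 3 types, and for *Pi15* the smallest. These differences between types were not tested.

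OB-like cells were not counted here among the types that chose the genes, so they were tested. OBs follow preOBs in the same lineage, so the choice may have used them too. They came from the same 8 libraries, and earlier results of these data were known, so the test may not be independent of the choice. *Podxl2* was at 100.3 and 103.8 CPM in the 7-week and at 94.5 and 95.9 in the 13-week controls, and at 81.0 and 62.5 and then 54.9 and 57.5 in the mutants. All mutants lay below all controls, and *Podxl2* fell by 0.63 on the log2 scale (SE 0.10, 1.55-fold, adjusted p = 0.0189, edgeR quasi-likelihood test with Benjamini-Hochberg adjustment over 14667 genes). *Pi15*, much lower in these cells, was at 2.27, 1.75, 8.37 and 4.19 CPM in controls and at 0.540, 0.399, 1.85 and 3.49 in mutants. Mutants were lower than controls of the same age in every case, although the 13-week mutants overlapped the 7-week controls, and *Pi15* fell by 1.67 on the log2 scale (SE 0.28, 3.18-fold, adjusted p = 0.0233). *Plppr3* was at 0.695, 0.813, 1.01 and 0.859 CPM in controls and at 0.221, 0.421, 0.388 and 0.422 in mutants, which is 170 against 73 UMIs in all. The groups were separate, and the log2 difference of *Plppr3* was -1.24 (SE 0.26, adjusted p = 0.0533). *Evl* was at 50, 46.6, 57.5 and 44.9 CPM in controls and at 38.3, 29.3, 34.8 and 38.2 in mutants, again with separate groups and a log2 difference of -0.50 (SE 0.12, adjusted p = 0.0841).

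Thus 2 of the 4 genes were called lower in OB-like cells, where 0.709% of all genes tested were, and 3 of the 4 had every mutant below every control, where 3.21% of all genes did. In OB-like cells mice of the same age and number deviated together, and with these pairs as a block all 4 genes were called, with adjusted p = 0.00908 for *Pi15*, 0.000951 for *Podxl2*, 0.0108 for *Plppr3* and 0.00763 for *Evl*, while the share of all genes called lower rose to 4.15%. With DESeq2 the adjusted p was 3.87e-07 for *Pi15*, 1.99e-05 for *Podxl2*, 0.042 for *Plppr3* and 0.0113 for *Evl*. The share of all genes that DESeq2 called lower there is not given, so nothing is read from the number of these calls. The number of calls over all genes in OB-like cells also changed with DESeq2, as given below. The edgeR calls were sensitive to single libraries. *Podxl2* kept adjusted p under 0.05 only without mutant 1 or without control 1 of 7 weeks, and reached 0.0510 to 0.101 when any of the other 6 mice was left out, with log2 differences of -0.73 to -0.55 throughout. *Pi15* lost its call, with adjusted p from 0.0513 to 0.0826, without control 1 or either mutant of 7 weeks, or without control 1 or mutant 1 of 13 weeks, and its log2 difference stayed between -1.92 and -1.37. With cells of over 5% mitochondrial UMIs left out, in place of 10%, the *Pi15* difference was -1.59 (adjusted p = 0.146).

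The lower *Podxl2* level was seen in each subset of the OB-like cells. They formed 8 clusters, and plain CPM per mouse was compared within each. *Podxl2* had every mutant below every control in 8 of 8 clusters, *Evl* in 7 of 8, *Plppr3* in 2 of 8 and *Pi15* in 1 of 8, where 4.54% of all genes with at least 10 UMIs did over the 8 clusters (3.11% to 6.33% in single clusters). The *Pi15* cluster rested on a lowest control of 0.417 and a highest mutant of 0.408 CPM. The clusters share their mice, and the share of all genes separate in as many clusters was not computed. Nothing is therefore read from these counts of clusters. The mutant mean was the lower one in all 8 clusters for each gene. *Podxl2* and *Evl* were both highest in the cluster led by *Ptprz1*, *Pdpn*, *Dmp1* and *Phex*, genes known from early osteocytes. *Podxl2* ranged there from 150 to 164 CPM in controls and from 80.3 to 108 in mutants. *Evl* ranged there from 95.1 to 155 in controls and from 67.4 to 84.6 in mutants. In the larger cluster of endothelial-like cells control *Evl* was at 55.3 to 108 plain CPM, and in the smaller one at 36.7 to 61.4. Among the OB-like clusters *Pi15* peaked in another, led by *Bglap2*, *Cpz*, *Ifitm5*, *Bglap* and *Thbs4*. It was there at 5.45 to 20.9 CPM in controls and 0.151 to 8.69 in mutants. The clusters were made from the same counts, so their levels are a description.

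**Figure D2:**
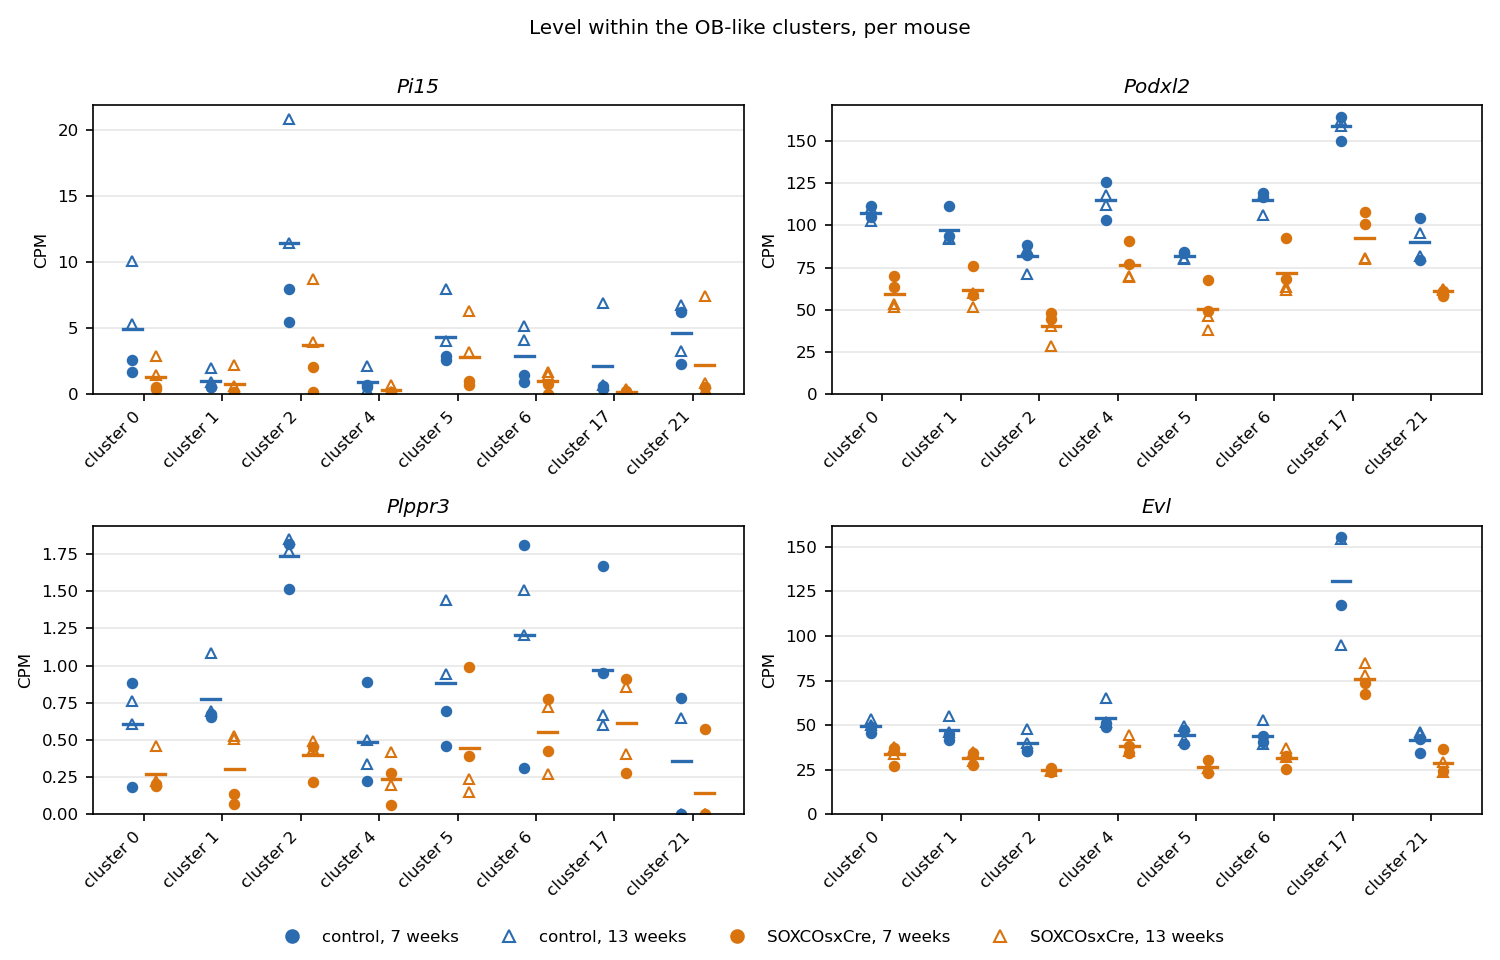
Plain CPM of each gene (vertical axis, linear, from 0) in the 8 clusters of OB-like cells. Points are mice (blue controls, orange SOXCOsxCre, circles 7 weeks, triangles 13 weeks) and horizontal bars are means of 4 mice. For *Podxl2* all mutants lie below all controls in 8 of 8 clusters (3.11% to 6.33% of all genes do so in the single clusters). The clusters share their mice and are not independent. In cluster 17 (*Ptprz1*, *Pdpn*, *Dmp1*, *Phex*) *Evl* ranges from 95.1 to 155 CPM in controls and from 67.4 to 84.6 in mutants.

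Outside the 3 types that chose the genes, 19 combinations of gene and type passed the filter on low counts, 17 of them with a negative fitted difference. These values share the same mice, and no matching share over all genes is set beside them, so nothing is read from that count. The calls of *Podxl2* and *Pi15* in OB-like cells were the 2 made by edgeR. *Pi15* in pericyte-like cells had the lowest adjusted p outside OB-like cells, and was at 25.3, 84.8, 197 and 121 CPM in controls and 39.3, 53.3, 36.8 and 45.3 in mutants. The mutants were close together and the controls far apart, the lowest control resting on 22 cells and 1 UMI. The log2 difference was -1.34 (SE 0.29, adjusted p = 0.0768), with the replicate block it was -1.24 (adjusted p = 0.0052, edgeR, and 0.00314 to 1.00 over all alternatives, the highest with DESeq2), and without control 2 of 7 weeks it was -0.50 (adjusted p = 0.859). It passed, with adjusted p from 0.00314 to 0.0354, without control 1 of 7 weeks, control 2 of 13 weeks, mutant 2 of 7 weeks or mutant 2 of 13 weeks. *Podxl2* (-0.77, SE 0.34, adjusted p = 0.714) and *Evl* (-0.82, SE 0.40, adjusted p = 0.790) were not called in pericyte-like cells, and the *Podxl2* difference turned to 2.95 without control 2 of 7 weeks. There 0.0171% of all genes tested were called lower.

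In the other 9 types together 0.00128% of 78008 gene tests were called lower, and 0 of the 12 tests of these genes were among them (2 had an unadjusted p under 0.05 in edgeR, and DESeq2 called 0). *Evl* in endothelial-like cells, its highest type, was at 82.0, 85.7, 83.6 and 53.1 CPM in controls and at 76.3, 62.7, 57.7 and 52.4 in mutants. Each mutant was lower than the control of its age and number, by a small margin for the last pair, and the log2 difference was -0.30 (SE 0.17, unadjusted p = 0.0959, adjusted p = 1.00, edgeR). *Pi15* in Sca1+ MSC-like cells was at 85.9, 96.3, 124 and 73.0 CPM in controls and at 132, 58.7, 13.0 and 33.5 in mutants. These groups overlapped, and the log2 difference was -1.26 (SE 0.41, adjusted p = 0.521). *Podxl2* in the same cells was at 79.3, 60.2, 99.3 and 150 CPM in controls and 55.0, 81.3, 115 and 67.0 in mutants, a log2 difference of -0.19 (SE 0.31, adjusted p = 0.982) that was 0.29 with the 5% mitochondrial limit. *Sox4* in Sca1+ MSC-like cells had a log2 difference of -1.14 (SE 0.32, adjusted p = 0.332). In plain CPM its mutants ranged from 69.8 to 219 and its controls from 232 to 396, with no overlap. In that cluster 1.95% of all genes with at least 10 UMIs had every mutant below every control. Of the remaining tests the unadjusted p was lowest for *Podxl2* in hypertrophic GPC-like cells, with a log2 difference of -1.02 (SE 0.38, unadjusted p = 0.0179, edgeR).

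**Figure D3:**
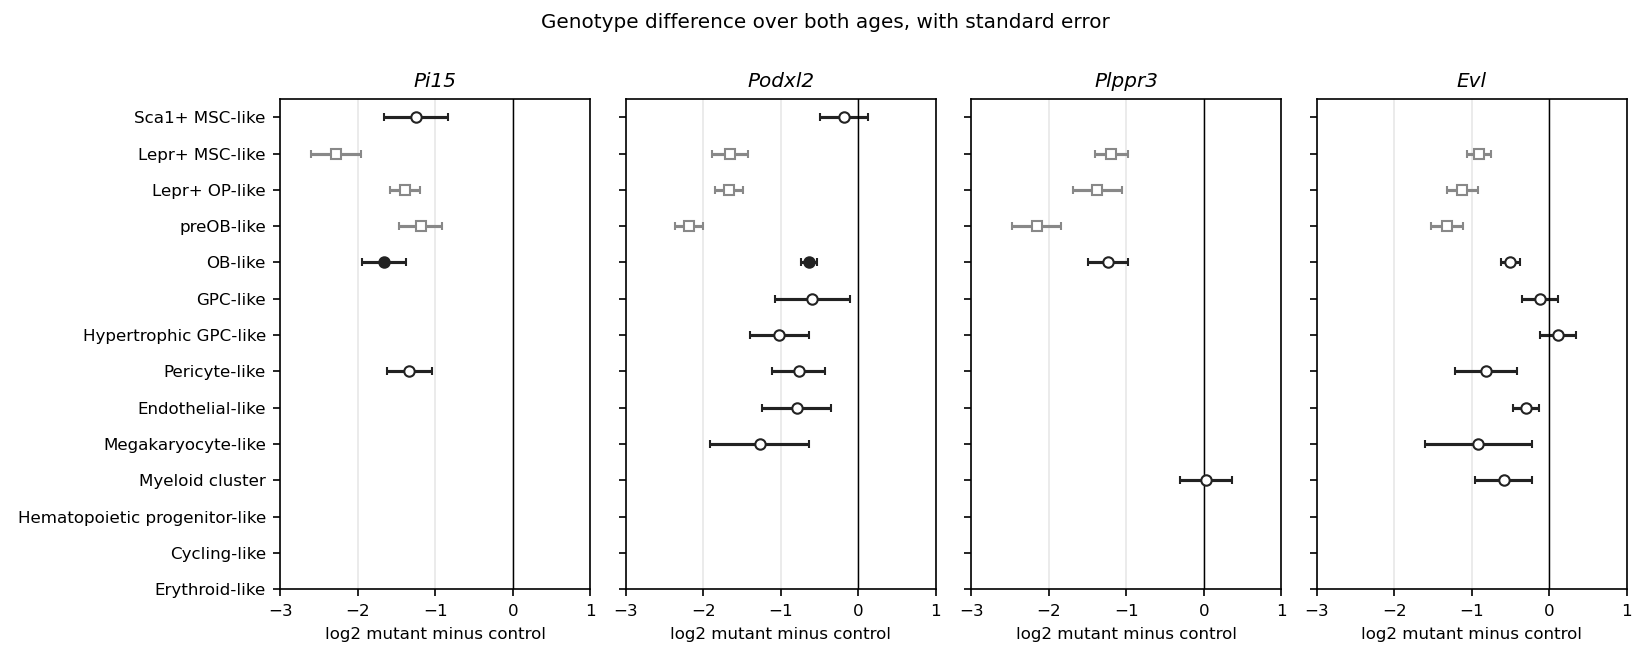
Fitted log2 difference (mutant minus control, mean of both ages) of each gene in each cell type where it passed the filter on low counts, with its standard error as a horizontal bar. Gray squares are the 3 types that chose the genes and carry no test, filled circles are calls at adjusted p under 0.05 (*Pi15* and *Podxl2* in OB-like cells) and open circles are other tests. *Podxl2* in Sca1+ MSC-like cells (-0.19) and *Plppr3* in the myeloid cluster (0.03) sit near 0.

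No difference of *Plppr3* was called in the myeloid cluster, 1 of its 2 highest types. It was at 29.2, 44.0, 7.52 and 29.2 CPM in controls and at 25.8, 32.0, 28.2 and 21.9 in mutants, with overlapping groups and a log2 difference of 0.03 (SE 0.33, adjusted p = 1.00). *Sox4* was not called there either (0.18, SE 0.25, adjusted p = 1.00), and the response of *Plppr3* in myeloid cells was not tested against that in stromal cells. At a finer clustering the myeloid cells split in 2. The cluster with granulocyte or monocyte markers had 48.6 ± 9.59 plain CPM (not TMM-normalized) of *Plppr3* in 3 controls and 48.5 ± 7.68 in 4 mutants, and the cluster with mast cell or basophil markers had 12.4 ± 4.65 and 7.93 ± 2.49. *Prtn3*, the neutrophil protease gene whose exon overlaps *Plppr3*, ranged from 1438 to 6845 plain CPM in the first of these clusters and from 172 to 593 in the second. Within the granulocyte or monocyte cluster *Plppr3* ranged from 38.9 to 58.1 plain CPM over the 7 mice while the ratio of *Prtn3* to *Plppr3* UMIs ranged from 27.3 to 140. In *Lepr*+ MSC-like cells the control mean of *Prtn3* was 11.2 CPM, against 25.7 of *Plppr3*. *Ptbp1*, the other overlapping gene, was at 111 CPM in OB-like cells, where *Plppr3* was at 0.843. How far reads of *Prtn3* or *Ptbp1* entered the *Plppr3* count was not tested.

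By median over mice, the share of cells with a UMI was lower in mutants in the comparisons given here. Between types, at unlike depths, the unthinned shares did not follow the levels. Control *Evl*, at a higher level in endothelial-like than in OB-like cells, had median shares of 37.2% and 47.6% there. In control OB-like cells the median share over mice was 70.3% for *Podxl2*, and 49.1% in mutants. After every cell was thinned to 2000 UMIs (1238 control and 1074 mutant cells were shallower and left out), the control shares were 17.2% to 19.2% and the mutant shares 10.1% to 13.8%. Erythroid-like cells, taken as cells that should lack these genes, had *Podxl2* in a median of 4.89% of control cells unthinned, at median depths of 7204 to 34240 UMIs, and in at most 0.546% of a control library's cells when thinned. *Evl* in thinned endothelial-like cells was found in 10.2% to 17.4% of control and 8% to 12.6% of mutant cells. *Pi15* in thinned preOB-like cells was found in 13.3% to 24.5% of control and 4.14% to 13.1% of mutant cells, and in thinned pericyte-like cells in 15.2% to 30.8% of control cells (3 mice) and 2.17% to 7.83% of mutant cells. *Plppr3* in thinned *Lepr*+ MSC-like cells was found in 3.08% to 7.16% of control and 0.722% to 2.02% of mutant cells. Neither *Pi15* nor *Plppr3* had a UMI in the 738 thinned erythroid-like control cells, which allows a share of up to 0.407%. In thinned OB-like cells the control median of *Plppr3* (0.162%) was below that limit, so at this depth its share there could not be told from free RNA. For *Pi15* the control shares there were 0.414% and 0.353% at 7 weeks, close to the limit, and 2.00% and 0.858% at 13 weeks, above it, at median depths of 9704 to 20556 UMIs before thinning. The mutant median of *Pi15* (0.334%) was below the limit.

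**Figure D4:**
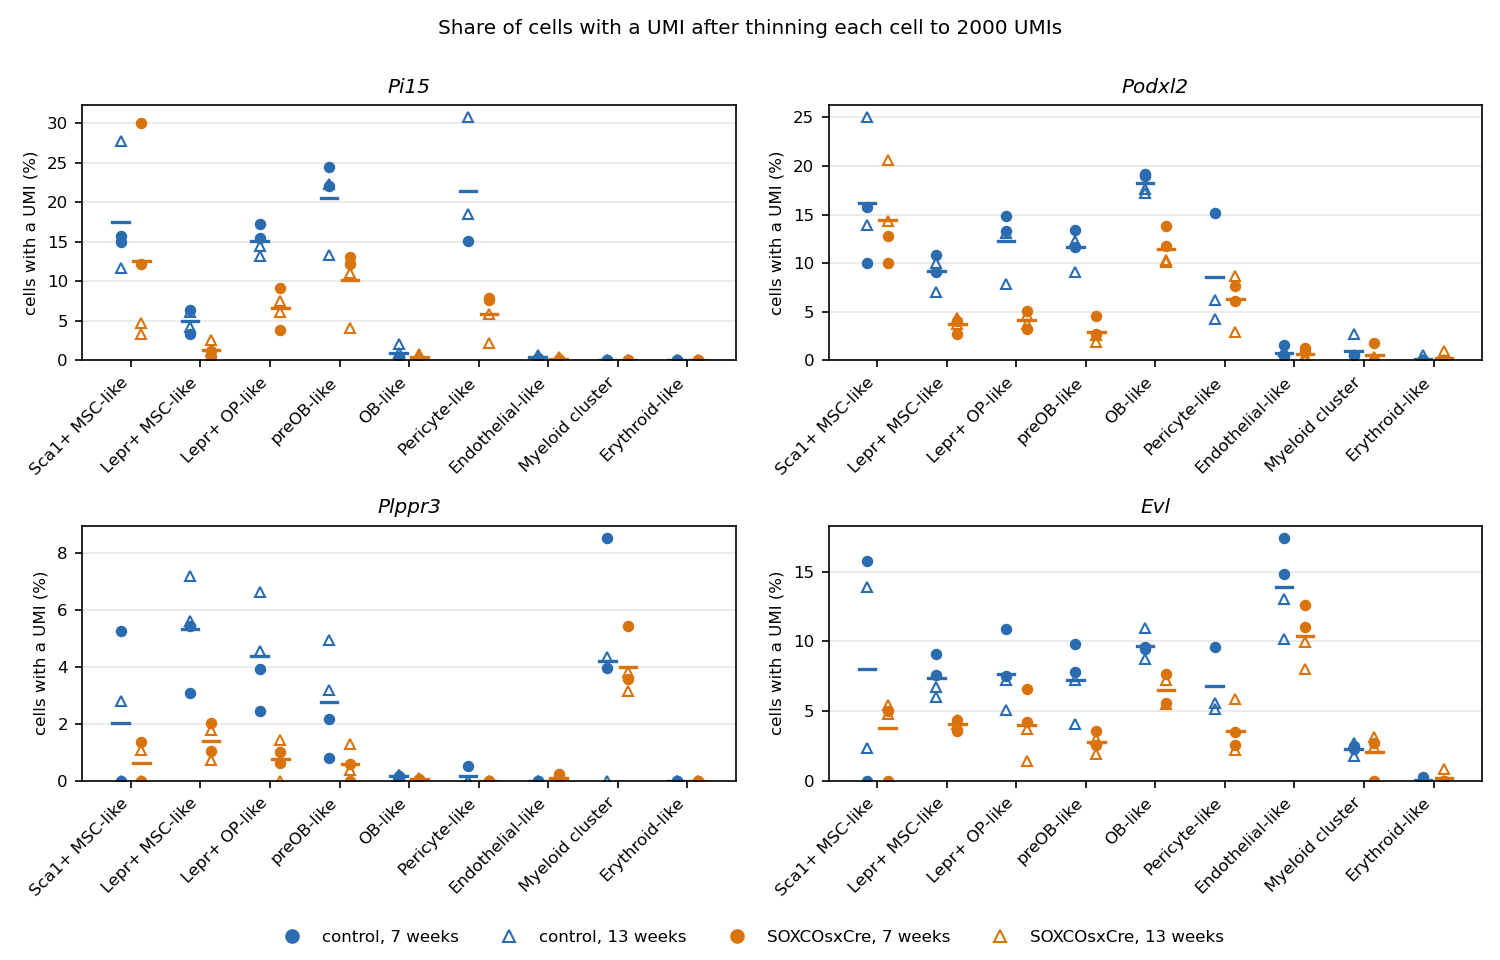
Percentage of cells with at least 1 UMI of each gene (vertical axis, from 0) after each cell was thinned to 2000 UMIs, in 9 cell types. Points are mice (blue controls, orange SOXCOsxCre, circles 7 weeks, triangles 13 weeks) and horizontal bars are means. *Podxl2* in OB-like cells is found in 17.2% to 19.2% of control and 10.1% to 13.8% of mutant cells, and erythroid-like cells stay under 1%.

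The mutants also had fewer *Pi15* UMIs in cells that hardly expressed it. In the 8 types where *Pi15* was too low to fit and its control mean was under 10 CPM, it had 68 UMIs in controls and 13 in mutants, or 0.716 and 0.161 CPM. The matching values were 0.477 and 0.388 CPM for *Plppr3* over 8 types, 2.43 and 1.80 CPM for *Podxl2* over 4 types, and 1.76 and 1.45 CPM for *Evl* over 3 types. The part of free RNA from other cells in the differences of OB-like cells was not tested.

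Over 14 types 0% of 130850 tests of the interaction between genotype and age were called, and of the 31 tests of these genes 2 had an unadjusted p under 0.05 in edgeR. Both concerned *Pi15*, with a further log2 difference at 13 weeks of -2.47 (SE 0.82, adjusted p = 1.00) in Sca1+ MSC-like and of -1.24 (SE 0.60, adjusted p = 0.999) in pericyte-like cells. In Sca1+ MSC-like cells the mean *Pi15* level at 7 weeks was 91.1 CPM in controls and 95.3 in mutants, and at 13 weeks 98.5 and 23.2. DESeq2 called 0 of these 31 tests.

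Between control mice of 7 and 13 weeks none of the 4 genes was called, where 0.16% of all gene tests were. *Pi15* had an estimate 1.65 higher on the log2 scale at 13 weeks in OB-like cells (SE 0.37, adjusted p = 0.188) and 1.03 higher in pericyte-like cells (SE 0.33, adjusted p = 0.199). *Podxl2* in hypertrophic GPC-like cells was 1.52 lower (log2 difference -1.52, SE 0.49, adjusted p = 0.169), and *Plppr3* in preOB-like cells 0.86 higher (SE 0.34, adjusted p = 0.523). These were the 4 of 31 tests with an unadjusted p under 0.05, and DESeq2 called 1 of the 31, *Pi15* in OB-like cells (adjusted p = 0.00226). The share of all genes that DESeq2 called by age is not given, so nothing is read from that count.

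Relatives and partners of the 4 genes were read from 5 lists of 48 genes, of which 42 were tested in at least 1 type. Of 352 tests by genotype 0 were called higher and 4 lower, for 3 genes, with 16 of 170 positive differences at an unadjusted p under 0.05 in edgeR and 0 called higher by DESeq2. Over the 14 types 0.157% of 130850 gene tests were called lower. With the replicate block the calls numbered 12 in place of 4, while 1.62% of all gene tests were called in either direction. *Tes*, encoding a LIM-domain protein of focal adhesions, was in the list of Ena/VASP proteins and partners. It fell by 2.22 on the log2 scale in preOB-like (SE 0.26, adjusted p = 0.000482) and by 1.6 in OB-like cells (SE 0.25, adjusted p = 0.0147). *Plppr5*, a relative of *Plppr3*, fell by 0.83 in *Lepr*+ OP-like cells (SE 0.17, adjusted p = 0.0291), and *Crispld2*, a secreted CAP protein like that of *Pi15*, fell by 1.39 in pericyte-like cells (SE 0.25, adjusted p = 0.0385). At the finer clustering the pericyte-like cells split into clusters of 512 and 346 cells. *Crispld2* was among the leading genes of the smaller one, led by *Acta2* and *Tagln*. The part of this mix in the *Crispld2* difference was not tested. By list, the calls were 1 of 39 tests for the CAP superfamily (6 of 9 genes tested), 0 of 8 for the CD34 family (both genes), 0 of 84 for selectins and the makers of their ligands (12 of 13 genes), 1 of 74 for lipid phosphatases and their relatives (9 of 11 genes) and 2 of 147 for Ena/VASP proteins and partners (13 of 13 genes). *Enah* and *Vasp*, the paralogs of *Evl*, were thus tested and not called.

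Likeness of control levels over the 14 types was measured as Pearson's r of log2(mean CPM + 1) among 11979 genes, as a description over points that share their libraries. The genes most like *Pi15* were *Gas1*, a hedgehog co-receptor (r = 0.975), *Nfatc4*, a calcineurin-regulated transcription factor (r = 0.974), and *Cys1* (r = 0.962). Those most like *Podxl2* included *Adamts2*, encoding a procollagen N-proteinase (r = 0.971), and *Lhfp* (r = 0.959). *Plppr3* had a looser set, *Lag3* (r = 0.912), *Otulinl* (r = 0.906) and *Gm43445* (r = 0.905), with *Lag3* and *Otulinl* highest in the myeloid cluster. *Dpysl2*, encoding a microtubule-binding protein (r = 0.973), *Rapgef4*, encoding an exchange factor for Rap GTPases (r = 0.961), and *Myo10*, encoding the filopodial motor myosin X (r = 0.959), were most like *Evl* and all highest in endothelial-like cells. Among the 4 genes r ranged from 0.381 (*Plppr3* with *Evl*) to 0.805 (*Pi15* with *Podxl2*). With *Sox4* it was 0.526 for *Pi15*, 0.495 for *Podxl2*, 0.576 for *Plppr3* and 0.585 for *Evl*.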

How the data were processed

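The authors counted UMIs with Cell Ranger 6.1.2 on mm10, per the labels, from 10x Chromium 3′ libraries (1 per mouse), and deposited filtered count matrices. Cells with under 200 or over 6000 genes or over 10% mitochondrial UMIs were left out, as were likely doublets (9.67% to 11.3% of cells per library), called by nearness to simulated doublets. Libraries were integrated with Seurat 5.3.0 (2000 variable genes, 30 components) and clustered (leidenalg 0.10.2, resolution 1). Clusters were named from marker lists, and 7.15% to 25.5% of kept cells per library fell in no type, mostly shallow clusters. The authors' own cell labels were not used here.

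UMIs of each type with at least 10 cells in a mouse were added up and tested with edgeR 4.0.16 in R 4.3.3 (TMM, filterByExpr, quasi-likelihood, 4 group means, Benjamini-Hochberg over all genes of a type, threshold 0.05). Megakaryocyte-like cells had 7 mice and were kept although shallow (9.26% of the median UMIs of their libraries). The members and lists were chosen with earlier results of these data known. Named genes were the 4 members, the SOXC genes, called relatives and the 3 genes most like each member, of which 1 is not reported here. Mutants and controls were collected as pairs of sisters per the study, the sources used here do not say that a replicate number marks a pair, and same-number deviations correlated over 0.1 at both ages in 9 of 13 types (range -0.04 to 0.79), OB-like cells included and pericyte-like cells not. DESeq2 1.42.0, other filters, scaling and clusterings, a replicate block and leaving out each mouse were tried. The fit was tested on simulated data. Intervals, limits and floors cover counting error only.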

Additional observations from a re-analysis of the deposited data

Results flagged for a closer look

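Some values in clusters that entered no comparison lay above the limit that a count of 0 allows (3 UMIs). Others given here rest on 3 UMIs or fewer and do not exceed it. In the B cell-like cluster *Evl* was at 54.2 plain CPM in control 2 of 7 weeks (42 UMIs, 213 cells), which held 213 of the cluster's 272 cells. The 2 mutant libraries with at least 10 such cells had 34.3 and 24.7 CPM of *Evl*, on 6 UMIs and 1 UMI. In a shallow cluster with Schwann cell markers *Pi15* was at 42.5 plain CPM in control 1 of 13 weeks, on 5 UMIs in 67 cells, and at 67.4 in control 2 of 13 weeks, on 3 UMIs in 43 cells. *Plppr3* was there at 125 plain CPM in control 2 of 7 weeks, on 3 UMIs in 26 cells, and had 0 UMIs in both 13-week controls. No group comparison was made in either cluster.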

How the results depend on the processing

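Of 443 single values recomputed under an alternative, 402 kept their direction and their side of the threshold or moved by less than the spread between mice, 12 became called, 12 lost a call, 6 moved and 11 changed sign. Calls of the 4 genes outside the 3 types that chose them numbered 2, and became 4 with DESeq2, 1 with a 5% mitochondrial limit, 5 with no filter on low counts, 5 with the replicate block and 0 to 2 when a mouse was left out. Calls by age (0) became 1 with DESeq2 and 2 with no filter, and calls by interaction stayed at 0, also without any 1 mouse. Calls among relatives (4) became 1 at the 5% limit, 14 with no filter, 12 with the block and 2 to 7 without a mouse. With the block 1.62% of all gene tests were called in either direction. Calls over all genes changed under the other settings too, as given next. These counts are therefore not read as results about the 4 genes or their relatives.

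Over all genes, calls by genotype in OB-like cells became 391 with DESeq2, 757 with no filter, 1228 with the block and 70 to 167 without a mouse. In *Lepr*+ MSC-like cells they became 32, 201, 107 and 10 to 35 under those 4 settings. In *Lepr*+ OP-like cells they became 42 at the 5% limit, 236 with no filter, 391 with the block and 58 to 93 without a mouse, and in preOB-like cells 27, 243, 241 and 42 to 80. In the other types together they became 52 with DESeq2, 3 at the 5% limit, 420 with no filter, 150 with the block and 1 to 171 without a mouse. Combinations of gene and type with a control share of at least 5% of cells fell from 29 to 19 when cells were thinned. The cause of these shifts was not tested.

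Changes of sign were small except 1. *Podxl2* in pericyte-like cells was at -0.92 to 2.95 when a mouse was left out, with 2.95 without control 2 of 7 weeks, which left a single control of that age with no *Podxl2* UMI. *Podxl2* in Sca1+ MSC-like cells was at 0.29 at the 5% limit and -0.43 to 0.037 without a mouse, with 0.037 without control 2 of 13 weeks. *Plppr3* in the myeloid cluster was at -0.0033 with the block and at -0.30 to 0.67 without a mouse, being negative (-0.04, -0.058, -0.10 and -0.30) without mutant 1 of 13 weeks, mutant 2 of 7 weeks, or control 1 of 7 or of 13 weeks. *Evl* reached 0.089 in GPC-like cells without mutant 1 of 7 weeks, from a low of -0.30, and ranged from -0.082 (without mutant 2 of 7 weeks) to 0.27 in hypertrophic GPC-like cells, with -0.044 without control 1 of 7 weeks. In pericyte-like cells, where the deviations of same-number mice did not correlate over 0.1 at both ages, the block gave *Pi15* a log2 difference of -1.24 (adjusted p = 0.0052). No block was fitted for age, since pairs lie within an age, and preOB-like cells and the whole myeloid cluster were not separate clusters at resolution 1.5. *Plppr3* in preOB-like cells rested on 19 UMIs over the 4 mutants.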

Other observations

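Among the shallow cells in no type, 1 cluster of 1940 cells carried all 15 *Lepr*+ MSC markers at 9.03% of the median UMIs of its libraries. *Podxl2* ranged there from 29.7 to 92.3 plain CPM in controls and from 5.57 to 22.9 in mutants, and *Evl* from 19.1 to 49.5 and from 4.56 to 17.2, both with no overlap, as for 1.79% of all genes with at least 10 UMIs in that cluster. That cluster carries the markers of a type that chose the genes, in the same mice, so nothing is read from that share. *Pi15* (13.2 to 47.0 and 5.57 to 17.2 CPM) and *Plppr3* (9.90 to 19.1 and 0 to 10.2 CPM) overlapped. In a second shallow cluster, of 3096 cells with OB markers, *Podxl2* ranged from 56.9 to 110 CPM in controls and from 28.1 to 59.6 in mutants, which overlapped, as did *Pi15* (3.79 to 10.0 and 0 to 6.25 CPM) and *Evl* (14.5 to 43.5 and 18.8 to 35.8 CPM). *Plppr3* had 1 or 2 UMIs in each control of that cluster and 0 in each mutant. These values were not tested.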
